A study of Mus musculus with 8 samples.

Results

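The phospholipase C beta genes Plcb1, Plcb2, Plcb3 and Plcb4 were followed in molar tooth epithelium of Foxi3 conditional knockout and wild-type mouse embryos. These 4 genes were chosen from 26165 genes on the array by identifier, and all 4 identifiers were found (ENSMUSG00000051177 for Plcb1, ENSMUSG00000040061 for Plcb2, ENSMUSG00000024960 for Plcb3 and ENSMUSG00000039943 for Plcb4). Plcb1 was chosen because its difference between the genotypes was already known, and the other genes because they belong to its family. The values of these genes in the 2 genotypes are therefore given as a description, and where a fit over all genes called or did not call one of them, the call belongs to that description and supports nothing.

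Each sample was RNA from the epithelium of both lower molars, separated with dispase from mouse embryos at E13.5, mid-gestation, and pooled from 5 embryos of 1 genotype. There were 4 pools of Foxi3 conditional knockout (cKO) epithelium, labelled K14-cre43;Foxi3-floxed, in which the study's design text gives the other Foxi3 allele as null. There were 4 pools titled wild type, whose genotype label reads Foxi3+/floxed. Both genotype labels thus carry a floxed Foxi3 allele, while the Cre is named only for the cKO. In the cKO, Cre recombinase is driven by a keratin 14 promoter, which is active in epithelium. Foxi3 itself, a forkhead transcription factor, and the markers of epithelium and of other cell types were not analysed here, because no table used here pairs the other identifiers with gene names. Neither the deletion nor the makeup of the pools was therefore checked. Since the Cre, the null allele and the deletion in epithelium come together in the cKO, what each contributes cannot be told apart.

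Phospholipase C beta enzymes sit at the inner face of the cell membrane below receptors that couple to G proteins of the Gq class. When activated by a Gq alpha subunit, and in some members also by G protein beta-gamma subunits, they cut the membrane lipid phosphatidylinositol bisphosphate into inositol trisphosphate, which releases calcium from internal stores, and diacylglycerol, which activates protein kinase C. Plcb1 is best known from the brain, Plcb2 from blood cells and taste receptor cells, Plcb3 from many tissues and Plcb4 from the retina and the cerebellum. In humans, variants of PLCB4 cause auriculocondylar syndrome, a malformation of the lower jaw and ear.

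Plcb1 was the member that was low in the cKO epithelium. Its level, in log2 units of RMA-processed array signal, was 4.55, 4.55, 4.51 and 4.29 in cKO replicates 1 to 4. In wild-type replicates 1 to 4 it was 5.59, 5.44, 5.68 and 5.74. The groups did not overlap: the lowest wild-type array lay 0.89 above the highest cKO array, a gap wider than the range of 0.26 within the cKO and of 0.30 within wild type. Plcb1 averaged 4.47 ± 0.12 in the cKO and 5.61 ± 0.13 in wild type (SD, n = 4 each). The difference of cKO minus wild type was −1.14 (moderated SE 0.084), which is 2.20-fold lower, or 54.6% lower, in the cKO. Taken array by array against the wild-type mean, Plcb1 was 2.09-fold lower in cKO replicate 1, 2.09-fold lower in replicate 2, 2.15-fold lower in replicate 3 and 2.50-fold lower in replicate 4. In RNA from pooled tissue, fewer cells that express Plcb1 and less Plcb1 RNA per cell cannot be told apart.

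The cKO signal of Plcb1 was dim. Its cKO mean lay below 4.72, the 40th percentile of mean signal over all genes, while its wild-type mean lay above 5.29, the median over all genes. The deposited table has no detection call, so it was not tested whether Plcb1 was above background in the cKO. If it was not, the 2.20-fold difference is a lower bound.

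**Figure D1:**
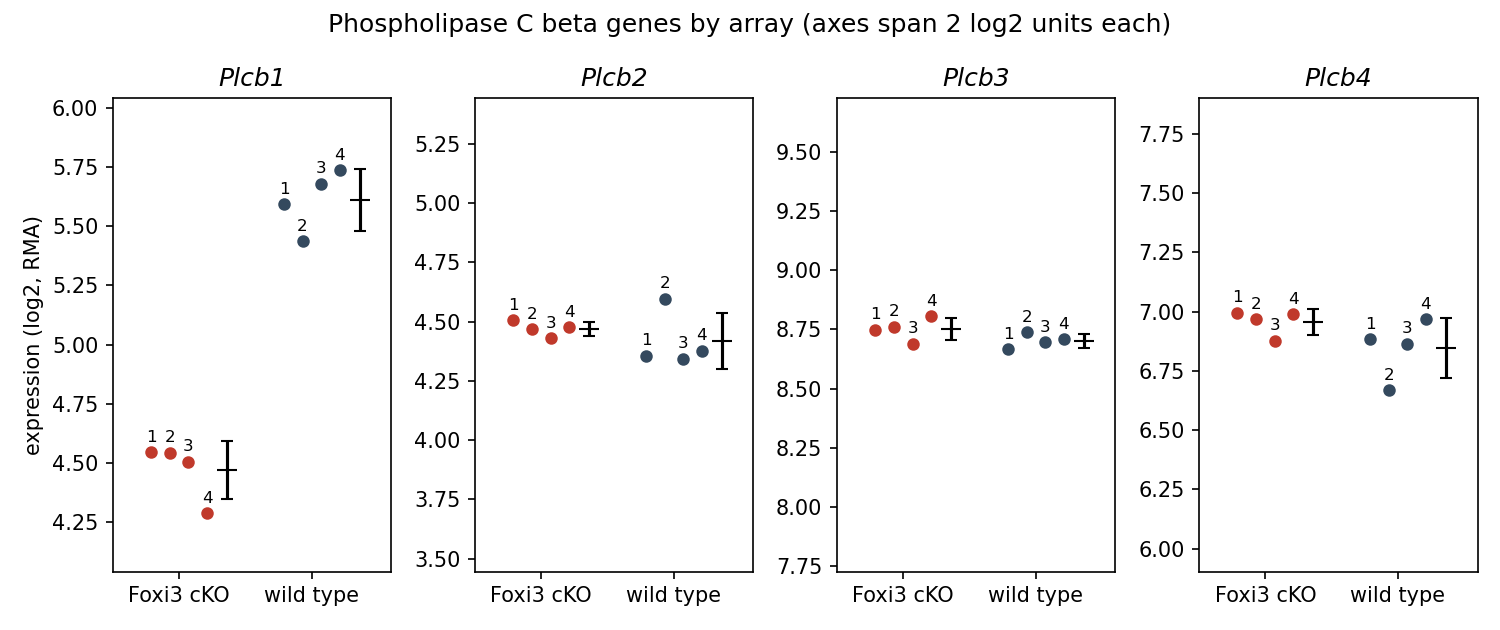
Level of each Plcb gene on each array (log2, RMA), with Foxi3 cKO arrays in red and wild-type arrays in dark grey. Numbers beside the points are replicate numbers, black bars are the mean ± SD (n = 4), and every axis spans 2 log2 units. For Plcb1 the cKO arrays reach at most 4.55 and the wild-type arrays lie at 5.44 or higher, while the groups of the other genes overlap.

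Plcb4 is the next protein-coding gene after Plcb1 along chromosome 2 in the RefSeq table (assembly GRCm38.p6). The promoter letters of both are shown because their measured differences had opposite signs, though the sign for Plcb4 is uncertain. They are the 250 bases upstream of the annotated transcript start, from RefSeq on build GRCm38.p6, 5′ to 3′ on the plus strand, with each CG dinucleotide in capitals. The Plcb1 window is chr2:134785914-134786163 and the window of the first Plcb4 start is chr2:135659297-135659546.
Plcb1: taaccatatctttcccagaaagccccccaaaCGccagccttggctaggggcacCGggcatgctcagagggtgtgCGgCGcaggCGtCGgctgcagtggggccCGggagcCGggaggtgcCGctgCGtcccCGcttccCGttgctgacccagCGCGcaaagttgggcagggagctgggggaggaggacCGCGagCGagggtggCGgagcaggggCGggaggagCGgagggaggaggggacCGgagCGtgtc
Plcb4: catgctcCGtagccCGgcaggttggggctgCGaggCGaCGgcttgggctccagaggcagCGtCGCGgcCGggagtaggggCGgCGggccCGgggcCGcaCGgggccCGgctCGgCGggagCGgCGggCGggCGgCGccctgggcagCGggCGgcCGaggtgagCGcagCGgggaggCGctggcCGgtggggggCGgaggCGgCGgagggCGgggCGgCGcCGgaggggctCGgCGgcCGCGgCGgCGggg

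Both windows were rich in CG dinucleotides. The Plcb1 window held 22 of them at a GC content of 71.2%, and the first Plcb4 window 42 at 85.2%. A second annotated start of Plcb4 lay in a window with 3 CG dinucleotides and 42.8% GC. The Plcb3 window held 20 at 64.4% and the Plcb2 window 4 at 62.0%, against a median of 6 and 52.4% over 32851 promoter windows. Thus Plcb1 and Plcb3 had like CG counts, while Plcb2 and the second Plcb4 start were near or below the median. The forkhead core letters TGTTTA, searched on both strands, were in none of the 5 windows of the members, and in 12.0% of all windows. The related letters TGTTTG were found 2 times, overlapping by 2 letters, in the second Plcb4 window alone, and in 16.0% of all windows. The shares over all windows are not matched for GC content. All member windows but the second Plcb4 window were richer in GC than the median. In 5 windows the absence of such letters says little. These counts describe these letters in these windows, and the array does not show which start is used.

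Plcb4 is the neighbour of Plcb1 on the chromosome, and its values in the genotypes overlapped. It was measured at 7.00, 6.97, 6.88 and 6.99 in cKO replicates 1 to 4. In wild-type replicates 1 to 4 its level was 6.88, 6.67, 6.86 and 6.97. The lowest cKO value, in replicate 3, was below wild-type replicates 1 and 4. Plcb4 averaged 6.96 ± 0.055 in the cKO and 6.85 ± 0.13 in wild type (SD, n = 4 each). Its difference of cKO minus wild type was 0.11 (moderated SE 0.068), opposite in sign to that of Plcb1. Wild-type replicate 2 carried much of it: without that array the difference was 0.052.

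Plcb3, the widely expressed member, varied little between arrays, and over all 4 wild-type arrays its SD was the smallest of the 4 genes. Its level was 8.75, 8.76, 8.69 and 8.80 in cKO replicates 1 to 4. In wild-type replicates 1 to 4 it was 8.67, 8.74, 8.69 and 8.71. The groups overlapped, with cKO replicate 3 below wild-type replicates 2, 3 and 4. The means were 8.75 ± 0.047 in the cKO and 8.70 ± 0.030 in wild type (SD, n = 4 each). The difference was 0.049 (moderated SE 0.042), or 1.03-fold.

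Plcb2, known from blood and taste receptor cells, gave a dim signal in both genotypes, with means below the 40th percentile of 4.72. Its level was 4.50, 4.47, 4.43 and 4.48 in cKO replicates 1 to 4. In wild-type replicates 1 to 4 it was 4.36, 4.60, 4.34 and 4.38. Wild-type replicate 2 was above every cKO array and the other wild-type arrays were below every cKO array. Plcb2 averaged 4.47 ± 0.031 in the cKO and 4.42 ± 0.12 in wild type (SD, n = 4 each). The difference was 0.051 (moderated SE 0.063), and leaving out wild-type arrays moved it to 0.031 without replicate 1, 0.11 without replicate 2 and 0.026 without replicate 3.

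In the limma fit over all 26165 genes, 342 genes were called at an adjusted p under 0.05, 180 of them higher and 162 lower in the cKO. The count depended on the setting: leaving out 1 array gave 119 (without cKO replicate 4) to 303 (without wild-type replicate 2), and centring each array on its median gave 196, with 131 higher and 65 lower. Leaving out any of the 3 remaining cKO arrays gave 121 to 138 calls, and any of wild-type arrays 1, 3 and 4 gave 141 to 201, each fewer than 342 by more than 1.5 times. Of the 4 Plcb genes 1 was called, Plcb1, against 1.31% of all genes, and that call ended in 1 of 17 alternatives, the replicate number as a block. In the direction of Plcb1, lower in the cKO, 0.619% of all genes were called, and 0.688% were called higher, among them no Plcb gene. Genes both called and at least 2-fold lower numbered 12, or 0.0459%, and Plcb1 was among them. Of the 162 genes called lower, 8 fell by at least as much as Plcb1, itself included. Non-overlapping groups, found for Plcb1 alone among the 4, were found in 7.85% of all genes, counted over both directions, where 3.71% were lower and 4.14% higher in the cKO. Plcb1 was chosen on this contrast, so nothing further is read from these counts.

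The other members lay well inside the bulk of the genes. Their differences of 0.051 for Plcb2, 0.049 for Plcb3 and 0.11 for Plcb4 fell between −0.22 and 0.19, the 5th and 95th percentiles of all differences, around a median of −0.018. None of the 3 was called, which does not show that they were unchanged. The difference of Plcb1 was larger in size than that of 99.95% of all genes, against 40.8% for Plcb2, 39.5% for Plcb3 and 71.9% for Plcb4. The measured differences of the 4 genes thus did not share a sign. For Plcb2, Plcb3 and Plcb4 the sign is uncertain on the deposited values, with moderated SEs of 0.063, 0.042 and 0.068. The SE of Plcb2 depended on wild-type replicate 2. Without that array its difference was 0.11 (moderated SE 0.035) and not called, while without wild-type replicate 3 it was 0.026 (moderated SE 0.068).

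**Figure D2:**
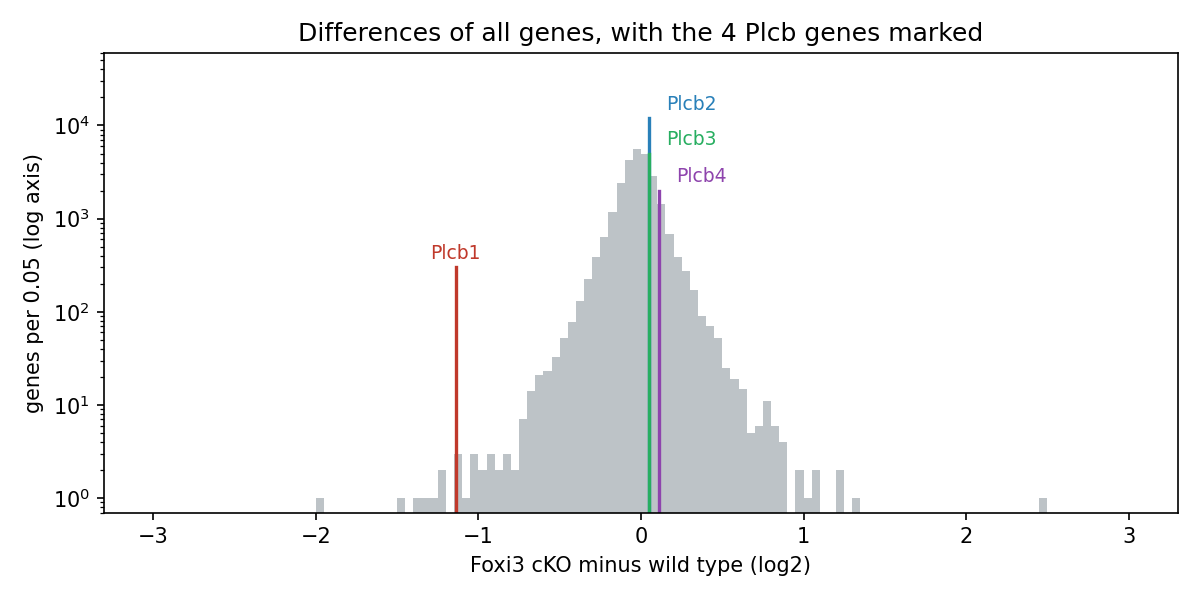
Number of genes (vertical log axis) by difference of Foxi3 cKO minus wild type (log2, bins of 0.05), with coloured lines at the 4 Plcb genes. Plcb1 stands in the sparse left tail at −1.14, while Plcb2, Plcb3 and Plcb4 stand between 0.049 and 0.11, in the bulk.

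The size of the Plcb1 difference changed little with the processing. Over 13 alternatives, of which the replicate block cannot move a difference in this balanced design, it ran from −1.20, without wild-type replicate 2, to −1.08, without cKO replicate 4. Over the same alternatives the other members stayed small and positive, from 0.026 to 0.11 for Plcb2, 0.029 to 0.084 for Plcb3 and 0.048 to 0.15 for Plcb4. In no alternative did one of these 3 approach the size of the Plcb1 difference. Centring each array on its median adds the same amount to every gene and so raised all 4 differences, to −1.10 for Plcb1 and to 0.15 for Plcb4.

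**Figure D3:**
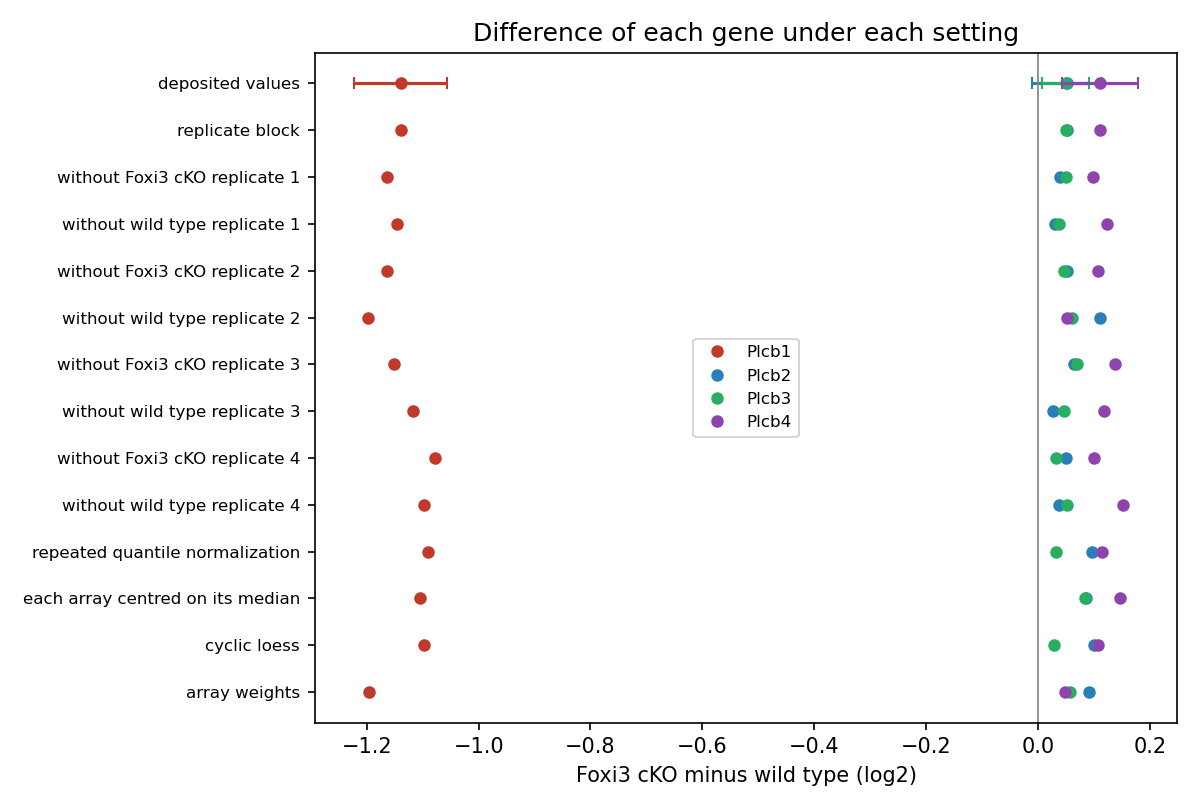
Difference of Foxi3 cKO minus wild type (log2, horizontal axis) for each Plcb gene, with the deposited values in the top row and 1 alternative setting in each row below. Bars in the top row are the moderated SE. Plcb1 lies between −1.20 and −1.08 in every row, and the other genes lie between 0.026 and 0.15.

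The measured spread within a genotype was not alike in the 4 genes, and is given as a description. For Plcb1 the SD was 0.12 in the cKO and 0.13 in wild type. Set among the 1000 genes nearest to it in mean signal over all 8 arrays, the Plcb1 SD was larger than that of 67.5% in the cKO. In wild type it was larger than that of 37.9%. For Plcb1 this mean lies between the levels of the genotypes, so these genes match its level in neither genotype. Plcb2 was among the tightest genes of its signal in the cKO, with an SD larger than only 5.80% of its 1000 neighbours, against 28.7% in wild type. For Plcb3 these shares were 45.1% in the cKO and 14.7% in wild type. For Plcb4 they were 46.1% in the cKO and 75.3% in wild type. The wild-type SD was 2.31 times the cKO SD for Plcb4 and 3.85 times for Plcb2. Both ratios rested on wild-type replicate 2. Without that array the wild-type SD was 0.055 for Plcb4 and 0.017 for Plcb2, against 0.055 and 0.031 in the cKO.

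Wild-type replicate 2 stood apart from the other arrays as a whole, with a median signal of 5.44 against 5.25 to 5.30 on the other 7 arrays, and it moved the members in different directions. Set against the average of the 3 remaining wild-type arrays, Plcb1 was lower by 0.23 log2 units on it (a deviation of −0.23), while the 1000 genes nearest to Plcb1 in mean signal had a median deviation of 0.22. Those genes were picked by their mean over all 8 arrays, which for Plcb1 is below its wild-type level. Whether genes at its wild-type level were also higher on this array was not tested. Plcb2 deviated by 0.24, close to the median of 0.25 for its own neighbours in signal. Plcb4 deviated by −0.24, against −0.040 for its neighbours, and Plcb3 by 0.047, against −0.070. Without this array the wild-type SD was 0.072 for Plcb1, 0.017 for Plcb2, 0.022 for Plcb3 and 0.055 for Plcb4. The Plcb1 difference was then −1.20, so it was not smaller without the array that stood apart.

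**Figure D4:**
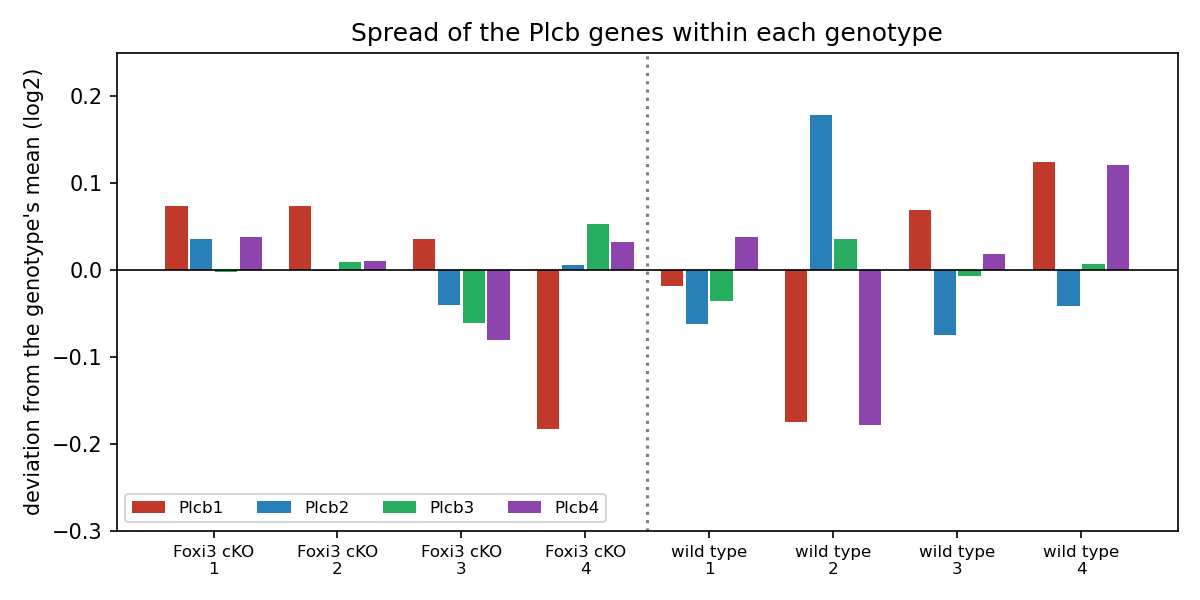
Deviation of each Plcb gene from its genotype's mean (log2) on each array, Foxi3 cKO on the left and wild type on the right of the dotted line. The longest bar belongs to Plcb1 in cKO replicate 4, at −0.183. The next longest are in wild-type replicate 2, at −0.175 for Plcb1, 0.179 for Plcb2 and −0.178 for Plcb4.

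Genes with a profile like that of Plcb1 were sought over the 8 arrays, by the root mean square distance between log2 profiles that were each centred on their own mean. The nearest was ENSMUSG00000032420, at a distance of 0.051, where the median over all genes was 0.59. It averaged 7.39 ± 0.11 in the cKO and 8.52 ± 0.064 in wild type (SD, n = 4 each), a difference of −1.13, and it too was lowest in cKO replicate 4. Next came ENSMUSG00000030075 at 0.12, which averaged 4.46 ± 0.062 in the cKO and 5.48 ± 0.18 in wild type (SD, n = 4 each). Its lowest value was in cKO replicate 2, not in cKO replicate 4. The other Plcb genes were no nearer than the median gene, at 0.62 for Plcb2, 0.61 for Plcb3 and 0.63 for Plcb4. The distance of a flat profile from Plcb1 was 0.58.

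The genes nearest to the mirror image of the Plcb1 profile were ENSMUSG00000062760 at 0.10 and ENSMUSG00000062432 at 0.14. ENSMUSG00000062432 averaged 6.86 ± 0.16 in the cKO and 5.78 ± 0.14 in wild type (SD, n = 4 each), a difference of 1.08. These genes were picked for this likeness, which the step between the genotypes sets for the most part, and no table used here names them.

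**Figure D5:**
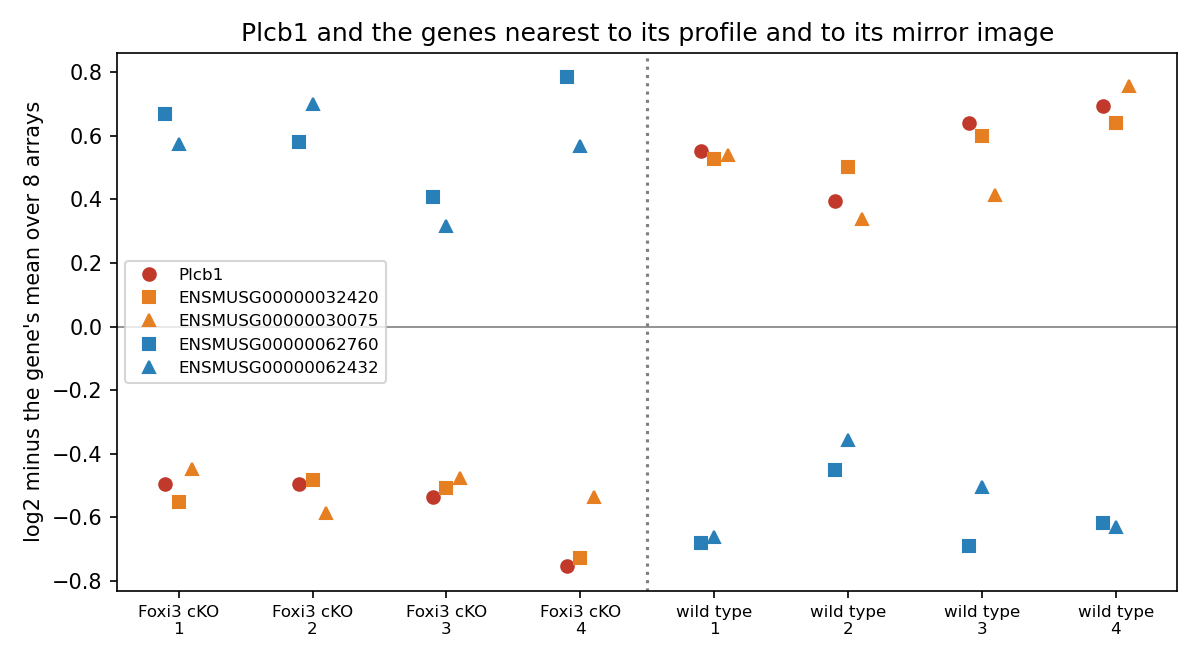
Plcb1 (red circles), the genes nearest to its profile (orange) and those nearest to its mirror image (blue), as log2 values minus each gene's mean over the 8 arrays. Plcb1 and the orange genes lie below 0 in every Foxi3 cKO array and above 0 in every wild-type array, and the blue genes lie the other way.

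In the RefSeq table (GRCm38.p6) Plcb1, Plcb2 and Plcb4 lie on chromosome 2 and Plcb3 on chromosome 19, while Foxi3 lies on chromosome 6. Plcb1 and Plcb4 are next to each other among protein-coding genes. Plcb1 overlaps the long noncoding RNA genes Gm39941 and 4930545L23Rik and the pseudogene Gm14036, Plcb3 overlaps Gm52400 and Plcb4 overlaps Gm14210. Probe positions are not given in the sources used here, so whether a row also reads an overlapping gene was not tested.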

How the data were processed

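RNA of 8 pools of E13.5 molar epithelium, 4 per genotype, was measured on Affymetrix expression arrays. The authors deposited 1 table of log2 values, for which the submitters' processing notes name RMA. This method corrects background, equalises the arrays' distributions and summarises probes, and it narrows fold changes of dim genes. Its version, the model of the array and the build of the genome are not given in the sources used here. The deposited medians nevertheless differed, with 5.44 on wild-type replicate 2 against 5.25 to 5.30 on the other 7 arrays. The reason was not tested. The 26165 rows are Ensembl gene identifiers. The members were paired with their identifiers by the rule that defined them. The RefSeq gene table pairs no identifier with a symbol, so the 12 pathway and cell type lists were not analysed.

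The comparison used lmFit and eBayes of limma 3.58.1 (R 4.3.3; two-sided, genotype alone in the model) on all rows, with Benjamini-Hochberg adjustment over all rows. The fit was tested on simulated data. Members and lists were chosen with earlier results of these data known. Named genes were the members and the 2 rows nearest to the Plcb1 profile and to its mirror image. Alternatives were a replicate block, dropping each array in turn, a second quantile normalization, median centring, cyclic loess, array weights, a filter on the dimmest 40% of rows, a trended robust prior, a threshold of 0.1 and a gene-by-gene test. Precision is limited by the number of arrays. Promoters were matched by symbol for 4 of 4 members.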

Additional observations from a re-analysis of the deposited data

Results flagged for a closer look

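In each genotype and for each member, the highest or lowest of the 4 arrays was checked for a gap to its nearest neighbour as a share of the group's range. Of 8 checks 2 passed Dixon's critical value, with shares of 0.850 and 0.867, while the next highest share was 0.764, and chance gives about 1 in 20. Plcb1 in cKO replicate 4 was 4.29, below the remaining cKO values of 4.51 to 4.55. Without that array the Plcb1 difference was −1.08. Plcb2 in wild-type replicate 2 was 4.60, above the remaining wild-type values of 4.34 to 4.38, and this array was high for genes of like signal as well (median deviation 0.25).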

How the results depend on the processing

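Over 13 alternatives each, the differences of the 4 members kept their sign and moved by less than the SD pooled over both genotypes (0.13 for Plcb1, 0.088 for Plcb2, 0.039 for Plcb3 and 0.098 for Plcb4). Leaving out 1 array gave −1.20 to −1.08 for Plcb1, 0.026 to 0.11 for Plcb2, 0.031 to 0.070 for Plcb3 and 0.052 to 0.15 for Plcb4. Plcb1 was called under 16 of 17 alternatives and Plcb2, Plcb3 and Plcb4 under none, where Plcb2 could not be tested without the dimmest 40% of genes. Plcb1 was chosen on these same arrays, so its repeated call is no independent support. The setting that ended the Plcb1 call was the replicate number as a block, which left the 4 differences at −1.14, 0.051, 0.049 and 0.11 and called 18 genes. Under the block the moderated SE of Plcb1 was 0.099, against 0.084 without it. No label states that equal numbers share a litter or day. Correlations of deviations within a number were −0.046, −0.090, −0.037 and 0.020, with 1 of 4 cKO arrays closest to its own number. With 4 arrays per genotype, these correlations cannot decide whether equal numbers share a litter or day. The count of 342 called genes became 119 to 303 when 1 array was left out, 196 (131 higher, 65 lower) with median centring, 575 with array weights and 181 with the gene-by-gene test. The cause was not tested. The planned counts for pathway lists were not run, and without detection calls the dim signals of Plcb1 in the cKO and of Plcb2 in both genotypes could not be told from background.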
